A study of Mus musculus with 18 samples.

Results

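Endoplasmic reticulum (ER) chaperones were followed across doses of octanoate through 10 genes, chosen by name: Hspa5, Hyou1, Creld2, Calr, Hsp90b1, Sdf2l1, Dnajb9, Pdia4, Pdia6 and Xbp1. They were chosen with earlier results of these data known. Every probe that carried one of these symbols was taken, which gave 14 of the 45281 probes on the array. Of these, 13 were detected above background on at least 4 arrays and were tested among 20536 probes, and each of the 10 genes kept at least 1 probe. The other probe, the second for Calr, was not above background on any array. Tested probes with a single symbol covered 10605 genes.

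AML12, an immortalized line of mouse hepatocytes made from a mouse with a human TGFA transgene, was used in all groups. Cells were plated in 6-well plates, left overnight, and given octanoate, a medium-chain fatty acid, or phosphate-buffered saline (PBS) for 24 h in complete DMEM with fetal bovine serum, which all groups received alike. The 18 arrays comprised 5 of cells given PBS, 4 of cells at 1 mM, 5 at 2 mM and 4 at 5 mM octanoate, and all are 1 line with no change of genotype between groups. By its title the series asks how lipids feed carbon into histone acetylation, and the dose series shows how RNA levels moved with the amount of fatty acid. Separate cultures for the replicates are not stated in the labels, so every p-value below rests on spread among these arrays, which may be technical.

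Secreted and membrane proteins fold in the lumen of the ER, where Hsp70 and Hsp90 family chaperones hold unfolded chains, lectin chaperones bind glycoproteins and disulfide isomerases pair cysteines. When unfolded protein builds up, the sensors Ire1, Perk and Atf6 start the unfolded protein response, and Atf6 and spliced Xbp1 raise transcription of most of the genes described here. Hepatocytes secrete most plasma proteins and carry a large ER, and saturated long-chain fatty acids are known to activate this response in liver cells.

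Several members share a promoter element through which Atf6 and Xbp1 act, the ER stress response element (ERSE). It was searched on both strands as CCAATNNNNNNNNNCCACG in RefSeq windows that run from 250 bases before to 50 bases after each gene's start (mouse build GRCm38.p6). Windows were at hand for 9 members, all except Hyou1. The ERSE letters stood in 5 of the 9, against 39 of all 32851 windows (0.119%). The matches are printed below because they are the sequence feature that members share, with the CCAAT and CCACG parts (or their complements, where the match lay on the opposite strand) in capitals.
Hspa5, chr2:34772025-34772043: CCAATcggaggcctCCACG
Calr, chr8:84847075-84847093: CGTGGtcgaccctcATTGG
Hsp90b1, chr10:86705638-86705656: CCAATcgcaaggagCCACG
Hsp90b1, chr10:86705533-86705551: CGTGGtgaggcacgATTGG
Pdia6, chr12:17266491-17266509: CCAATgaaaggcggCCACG
Creld2, chr15:88819520-88819538: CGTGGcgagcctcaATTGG

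In Hspa5 the match began 65 bases before the start of the gene, in Pdia6 98, in Creld2 126 and in Calr 162. Hsp90b1 held a pair of matches that do not overlap, 212 and 107 bases before its start and on opposite strands. The windows of Pdia4, Dnajb9, Sdf2l1 and Xbp1 held no full ERSE. Neither the related element ERSE-II, searched as ATTGG, any 1 base and CCACG (0.0365% of all windows), nor TGACGTGG, a form of the unfolded protein response element (0.676%), stood in any of the 9. CCACG alone, which is part of both ERSE and ERSE-II, stood in 8 of the 9 and in 32.8% of all windows. A match describes letters and is not a shown binding site. The 250 bases before the start of Hspa5 (plus strand, chr2:34771840-34772089) and of Hsp90b1 (minus strand, chr10:86705445-86705694) are given to show the element in place, since these are the major Hsp70 and Hsp90 chaperones of the ER.
Hspa5: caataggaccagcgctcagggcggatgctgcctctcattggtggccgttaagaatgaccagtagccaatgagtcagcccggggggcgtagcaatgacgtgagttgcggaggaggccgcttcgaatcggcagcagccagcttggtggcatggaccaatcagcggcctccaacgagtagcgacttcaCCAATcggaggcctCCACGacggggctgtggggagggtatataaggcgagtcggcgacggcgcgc
Hsp90b1: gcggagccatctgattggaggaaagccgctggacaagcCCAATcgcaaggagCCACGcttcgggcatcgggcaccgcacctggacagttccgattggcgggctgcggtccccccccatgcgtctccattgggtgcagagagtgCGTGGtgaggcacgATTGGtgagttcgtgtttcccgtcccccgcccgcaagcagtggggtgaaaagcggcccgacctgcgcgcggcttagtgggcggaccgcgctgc

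Levels below are log2 intensities after background correction, with an added offset, and quantile normalization, so that a difference of 1 log2 unit is a doubling of the normalized intensity and changes of dim probes are understated. A level of one probe cannot be set against that of another. A gene was called changed where the adjusted p of limma's moderated test, over all tested probes, was under 0.05, and the detected probe with the highest mean stood for the gene. The arrays sat on 3 BeadChips of 6 arrays. All PBS arrays shared BeadChip 1 with replicate 1 of the 1 mM group. BeadChip 2 carried the other 3 arrays at 1 mM together with replicates 1 to 3 at 2 mM, and BeadChip 3 the remaining 2 arrays at 2 mM with the 4 at 5 mM. A fit with BeadChip as a term gives differences within 1 BeadChip for neighbouring doses. For 1 mM against PBS that is 1 mM replicate 1 alone against the PBS arrays. The values for 2 mM and 5 mM against PBS then run through this single array of 1 mM replicate 1.

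Detected probes numbered 17446 to 19842 per array, and replicates of a group correlated at 0.988 to 0.995 across probes. At 5 mM detected probes were more numerous (18643 to 19842) than with PBS (17446 to 18483), and the part of this in the results was not tested. Of 19 hepatocyte markers with a named probe, 10 were tested. Ttr, Trf, Apob and Hnf4a were detected on 18 arrays, whereas Alb, Apoa2, Apoc3, Apoh, Fgb, Cps1 and Tat were detected on none, so only some of the markers that define hepatocytes were present. The summed level of the 19 markers with a named probe, detected or not, was 42407 to 47702 at 5 mM, against 28902 to 31652 with PBS. Of the 10 tested, 7 were called higher and 2 lower. Ttr had a mean level of 12.54 at 5 mM and 8.32 with PBS, whereas the keratins Krt8 (13.44 at 5 mM, 13.71 with PBS) and Krt18 (12.89 at 5 mM, 13.21 with PBS) lay lower. The biliary and progenitor markers Krt19, Krt7 and Sox9 were detected on 18 arrays, with a list sum (5 of 6 tested) of 5493 to 6270 at 5 mM and 5049 to 5324 with PBS, and 2 of the 5 were called higher and 2 lower. Within that list Krt7 (6.29 at 5 mM, 7.37 with PBS) and Krt19 (10.20 at 5 mM, 10.45 with PBS) had lower means, and Sox9 (12.15 at 5 mM, 11.80 with PBS) and Afp (6.20 at 5 mM, 4.73 with PBS) higher ones. Of the lists for other cell types, Ptprc, Adgre1, Pecam1 and Col1a1 were detected on no array, and Des on 14, Acta2 and Tek on 7, Dcn and Csf1r on 6 and Kdr on 4. Among 3 tested stellate cell and fibroblast markers 2 were called higher at 5 mM and 0 lower. The sum over the 8 with a named probe was 67.6 to 103 at 5 mM and 57.0 to 76.1 with PBS. Des had a mean of 5.64 at 5 mM and 4.96 with PBS, and Dcn 4.99 at 5 mM and 4.40 with PBS. Acta2, the other tested marker of that list, was lower (4.62 at 5 mM, 4.88 with PBS). Of 2 tested endothelial markers 0 were called higher and 1 lower by limma. The sum over the 6 with a named probe was 38.0 to 48.7 at 5 mM and 50.6 to 62.0 with PBS. The sum of the macrophage list (2 of 6 tested), carried by Cd14, was 1379 to 1563 at 5 mM and 2327 to 2996 with PBS. Of the 2 tested, 0 were called higher and 1 lower. Cd14 had a mean of 10.50 at 5 mM and 11.36 with PBS, whereas Csf1r had 4.81 at 5 mM and 4.65 with PBS. The part of these marker lists in the results was not tested. In bulk RNA, fewer cells of a kind and less RNA per cell cannot be told apart.

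At 5 mM octanoate, 6 of the 10 members fell relative to PBS: the Hsp70 chaperones Hspa5 and Hyou1, the Hsp90 chaperone Hsp90b1, the lectin chaperone Calr, and Creld2 and Sdf2l1. Pdia6, a disulfide isomerase, rose on its brighter probe. Dnajb9, Pdia4 and Xbp1 did not pass the test. The 7 called genes compare with 53.5% of all tested probes called at this dose, of which 27.2% were called higher and 26.3% lower. The median log2 fold change over the members was −0.34, against −0.015 over all tested probes. The members were chosen with earlier results of these data known, and this difference was not tested. Falls were between 0.33 log2 units for Sdf2l1, to 0.796 of the PBS level, and 0.58 for Hspa5, to 0.667 of it. For 5 of the 6, all except Hspa5, every 5 mM array lay below every PBS array, as held for 22.0% of all tested probes. In the fit with BeadChip as a term, 2 members were called lower, Hyou1 and Creld2, and 0 higher. Both values run through 1 mM replicate 1, the lowest 1 mM array for Hyou1 (5.46) and for the brighter Creld2 probe (9.23). The dimmer Creld2 probe, at −0.28, was not called in that fit. With arrays scaled to a common median in place of quantile normalization, 2 were called lower, Hspa5 and Hyou1, and 1 higher, Pdia6.

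**Figure D1:**
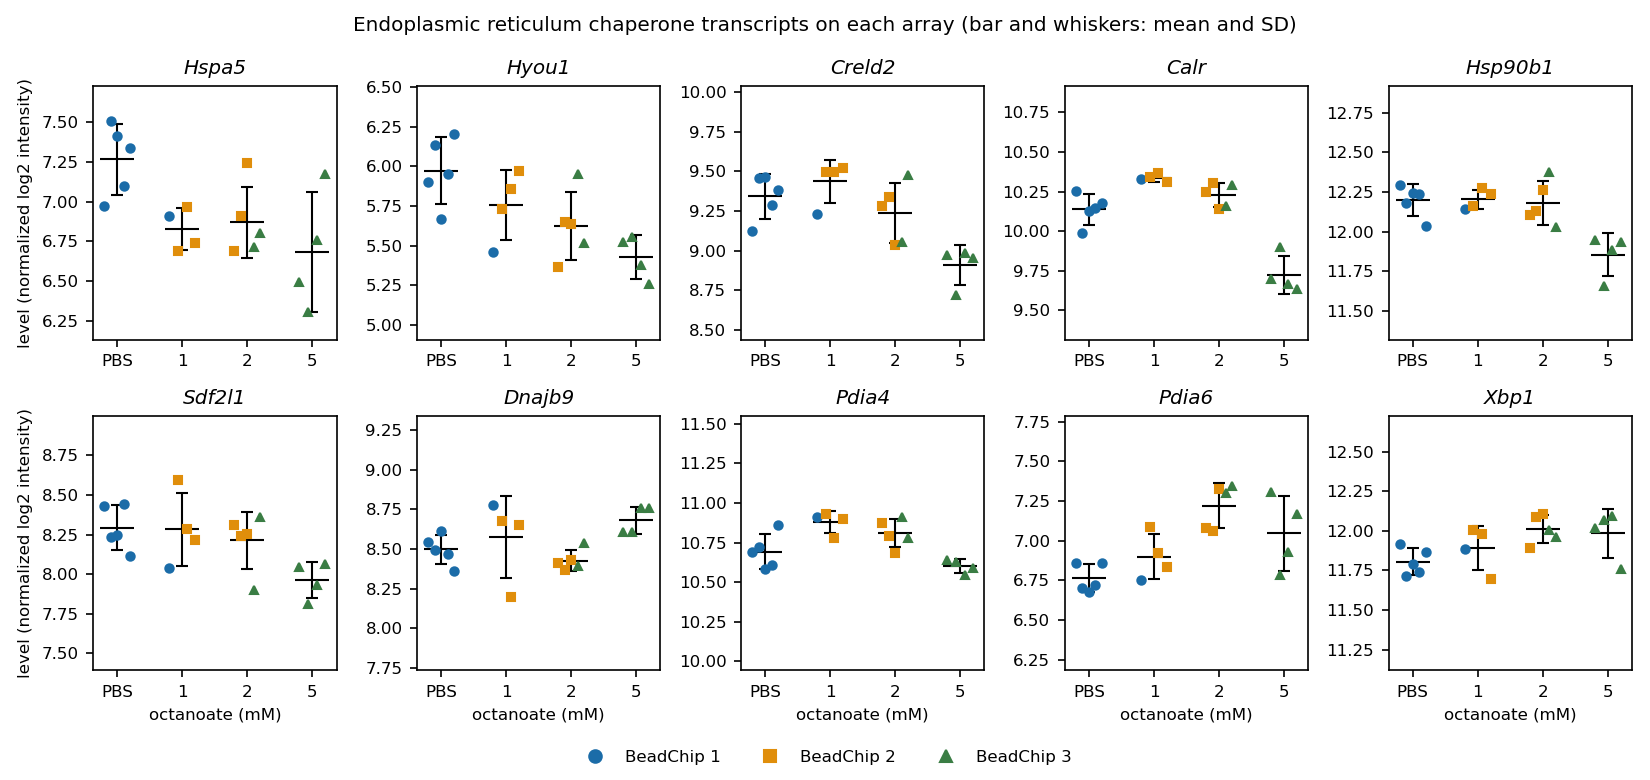
Normalized log2 intensity of each member's brightest detected probe on each of the 18 arrays (points, with colour and shape for the BeadChip), with the mean and SD of each group (bars), for PBS and for 1, 2 and 5 mM octanoate. The 5 mM arrays of Calr, Hsp90b1, Creld2, Sdf2l1 and Hyou1 lie below all PBS arrays, those of Hspa5 overlap PBS, and Pdia6 is highest at 2 mM.

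Hspa5 encodes BiP, the Hsp70 of the ER lumen, which binds unfolded chains and holds the stress sensors in check. Its log2 levels were 6.97, 7.51, 7.42, 7.10 and 7.34 on the PBS arrays, 6.91, 6.69, 6.97 and 6.74 at 1 mM, 6.69, 6.91, 7.24, 6.72 and 6.81 at 2 mM and 6.50, 6.30, 6.76 and 7.17 at 5 mM octanoate. The 1 mM arrays lay just below the lowest PBS array, while 5 mM replicate 4 lay above 2 of the PBS arrays. At 5 mM the level was 6.68 ± 0.38 (SD, n = 4), against 7.27 ± 0.22 with PBS (n = 5), a log2 fold change of −0.58 ± 0.15 (SE; limma adjusted p = 0.00304). The spread of Hspa5 was widest at 5 mM. The BeadChip term gave −0.29 at 5 mM (adjusted p = 0.642), and the gene was not called. The deposited intensity, before correction, averaged 217 ± 48.1 at 5 mM and 244 ± 34.5 with PBS.

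Hspa5 had a lower mean than with PBS already at the smallest dose, but was not called there. Its log2 fold change was −0.44 ± 0.15 at 1 mM (limma adjusted p = 0.0538) and −0.39 ± 0.14 at 2 mM (adjusted p = 0.0378), so that only the second passed. Its neighbours in the order of doses did not differ beyond their spread, with 0.044 between 2 mM and 1 mM and −0.19 between 5 mM and 2 mM (adjusted p = 0.914 and 0.404). Within BeadChip 1 the 1 mM value was −0.36, from 1 mM replicate 1 alone against the PBS arrays. With BeadChip as a term the 2 mM value was −0.21 (limma adjusted p = 0.736). The 1 mM fall passed without PBS replicate 1, 2 mM replicate 3, 5 mM replicate 2 or 5 mM replicate 4 (adjusted p = 0.0256 to 0.0411). The 2 mM call was lost without PBS replicate 2, 3 or 5, or without 2 mM replicate 1, 2, 4 or 5 (adjusted p = 0.0534 to 0.0977).

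Hyou1 encodes Grp170, a large Hsp70 relative that acts as a nucleotide exchange factor for BiP. Its levels were 5.90, 6.14, 5.67, 5.95 and 6.20 on the PBS arrays, 5.46, 5.73, 5.86 and 5.97 at 1 mM, 5.37, 5.65, 5.63, 5.95 and 5.52 at 2 mM and 5.52, 5.55, 5.38 and 5.26 at 5 mM octanoate. The probe was dim, and levels were lower at each higher dose on average, with means of 5.97 (PBS), 5.75 (1 mM octanoate), 5.62 (2 mM octanoate) and 5.43 (5 mM octanoate). All 5 mM arrays lay below the PBS arrays. The log2 fold changes against PBS were −0.22 ± 0.13 at 1 mM (limma adjusted p = 0.261), −0.35 ± 0.12 at 2 mM (adjusted p = 0.0284) and −0.54 ± 0.13 at 5 mM (adjusted p = 0.00118). With BeadChip as a term they were −0.51, −0.82 and −1.12 at the 3 doses (adjusted p = 0.125, 0.0376 and 0.00761). Its fall at 5 mM was called in each of 28 alternative settings. The authors' processed values gave the smallest value, −0.12, and the BeadChip term the largest. That largest value runs through 1 mM replicate 1, whose level of 5.46 was the lowest at 1 mM. The 2 mM call was lost without PBS replicate 2 or 5, or without 2 mM replicate 1 or 5 (adjusted p = 0.0619 to 0.0837).

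Sdf2l1 and Dnajb9 are cofactors of BiP. Sdf2l1 is a small lumenal protein that works with the J-domain protein Dnajb11, and Dnajb9, or ERdj4, is a J-domain protein that passes misfolded proteins to degradation and is a known target of spliced Xbp1. Sdf2l1 had levels of 8.43, 8.23, 8.25, 8.44 and 8.11 on the PBS arrays, 8.04, 8.59, 8.28 and 8.22 at 1 mM, 8.31, 8.24, 8.25, 7.90 and 8.36 at 2 mM and 8.04, 7.81, 7.93 and 8.06 at 5 mM octanoate. Its 5 mM arrays lay just below the lowest PBS array, and its 1 mM and 2 mM arrays overlapped PBS. The log2 fold change at 5 mM was −0.33 ± 0.11 (limma adjusted p = 0.018), with 7.96 ± 0.11 at 5 mM (SD, n = 4) and 8.29 ± 0.14 with PBS (n = 5). Without 5 mM replicate 2 it was −0.28 (adjusted p = 0.064), and with BeadChip as a term −0.51 (adjusted p = 0.162).

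Dnajb9 went the other way from Sdf2l1 but was not called. The levels of its brighter probe were 8.55, 8.49, 8.61, 8.47 and 8.36 on the PBS arrays, 8.78, 8.68, 8.20 and 8.65 at 1 mM, 8.41, 8.37, 8.43, 8.39 and 8.54 at 2 mM and 8.61, 8.61, 8.76 and 8.76 at 5 mM octanoate. The 5 mM arrays overlapped PBS only at their lower edge. The log2 fold change was 0.19 at 5 mM (95% interval −0.019 to 0.39, limma adjusted p = 0.12). Without 1 mM replicate 3, whose level of 8.20 stood below the other 1 mM arrays, it passed (0.19, adjusted p = 0.0403). The dimmer probe gave −0.020 at 5 mM (adjusted p = 0.928) and a called fall of 0.40 at 2 mM (adjusted p = 0.0381), where the brighter probe gave −0.070 (adjusted p = 0.591).

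Hsp90b1 encodes Grp94, the Hsp90 of the ER, which folds integrins, Toll-like receptors and other client proteins. Levels of Hsp90b1 were 12.29, 12.18, 12.24, 12.23 and 12.04 on the PBS arrays, 12.15, 12.16, 12.28 and 12.23 at 1 mM, 12.11, 12.13, 12.26, 12.38 and 12.03 at 2 mM and 11.95, 11.66, 11.89 and 11.93 at 5 mM octanoate. Neither 1 mM nor 2 mM differed from PBS beyond the spread, and the 5 mM arrays lay below all others. Its log2 fold change was 0.0058 at 1 mM (adjusted p = 0.973), −0.017 at 2 mM (adjusted p = 0.89) and −0.34 ± 0.09 at 5 mM (limma adjusted p = 0.00212). Against PBS with the BeadChip term, the 5 mM value was −0.46 (adjusted p = 0.134). The deposited intensity averaged 4081 ± 807 at 5 mM and 5008 ± 702 with PBS. Between 5 mM and 2 mM the difference over all arrays of both groups was −0.33 ± 0.09 (limma adjusted p = 0.00687). Within BeadChip 3 it was −0.35 (adjusted p = 0.0377). There the 5 mM arrays meet only replicates 4 and 5 at 2 mM, which stood at 12.38 and 12.03.

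Calr encodes calreticulin, a calcium-binding lectin chaperone that retains newly made glycoproteins until they fold. Its brighter probe had levels of 10.25, 9.99, 10.13, 10.14 and 10.18 on the PBS arrays, 10.33, 10.34, 10.37 and 10.31 at 1 mM, 10.25, 10.30, 10.14, 10.16 and 10.29 at 2 mM and 9.70, 9.90, 9.67 and 9.64 at 5 mM octanoate. The 1 mM arrays were tightly grouped above every PBS array, and all 5 mM arrays were below every other array. At 5 mM the level was 9.72 ± 0.12 (SD, n = 4), against 10.14 ± 0.10 with PBS (n = 5), a log2 fold change of −0.41 ± 0.07 (limma adjusted p = 9.16e-05). The value at 1 mM was 0.20 ± 0.07, with a limma adjusted p of 0.0735 that missed the threshold. Within BeadChip 1, where 1 mM replicate 1 stands alone against the PBS arrays, the 1 mM value was 0.19. Against 2 mM, the fall at 5 mM was −0.50 ± 0.07 (adjusted p = 2.91e-05), and within BeadChip 3 it was −0.50 as well (adjusted p = 0.00146). Against PBS with BeadChip as a term, the estimate was −0.41, with a wider interval of −0.81 to −0.017 and an adjusted p of 0.124.

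Creld2 is an ER protein with epidermal growth factor-like repeats whose RNA rises strongly under ER stress. On the brighter of its 2 probes, levels were 9.12, 9.46, 9.46, 9.29 and 9.38 on the PBS arrays, 9.23, 9.50, 9.50 and 9.52 at 1 mM, 9.28, 9.34, 9.03, 9.05 and 9.48 at 2 mM and 8.97, 8.72, 8.98 and 8.95 at 5 mM octanoate. On the dimmer probe they were 9.34, 9.21, 9.12, 9.24 and 9.15 on the PBS arrays, 9.33, 9.06, 9.15 and 9.10 at 1 mM, 8.99, 9.07, 8.91, 8.83 and 9.21 at 2 mM and 8.72, 8.73, 8.69 and 8.81 at 5 mM octanoate. On both probes every 5 mM array lay below every array of PBS and of 2 mM. The log2 fold change at 5 mM was −0.44 ± 0.10 on the brighter probe (limma adjusted p = 0.00139) and −0.47 ± 0.08 on the dimmer (adjusted p = 6.89e-05). These became −0.75 (adjusted p = 0.0328) and −0.28 (adjusted p = 0.331) with the BeadChip term, so the probes kept the sign but parted in the call. Both values run through 1 mM replicate 1, the lowest 1 mM array on the brighter probe (9.23) and the highest on the dimmer (9.33). Lower doses gave 0.095 at 1 mM and −0.10 at 2 mM on the brighter probe (adjusted p = 0.579 and 0.433), and −0.21 at 2 mM on the dimmer (adjusted p = 0.0418).

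Pdia4 and Pdia6 are disulfide isomerases, known as Erp72 and P5, which form and reshuffle disulfide bonds. Pdia4 had levels of 10.69, 10.72, 10.59, 10.61 and 10.86 on the PBS arrays, 10.91, 10.93, 10.78 and 10.90 at 1 mM, 10.87, 10.79, 10.68, 10.91 and 10.78 at 2 mM and 10.64, 10.63, 10.55 and 10.59 at 5 mM octanoate. The 5 mM arrays were close together and overlapped the lower PBS arrays. Its log2 fold change at 5 mM was −0.091 (95% interval −0.25 to 0.063, limma adjusted p = 0.321). It was 10.88 ± 0.07 at 1 mM (SD, n = 4), 0.19 above PBS (adjusted p = 0.0868), which passed only without PBS replicate 5 among the omissions of 1 array (0.23, adjusted p = 0.038). Against 2 mM, the 5 mM arrays of Pdia4 lay lower without overlap (−0.21 ± 0.07, adjusted p = 0.0421). That call was lost without any 1 of 8 arrays, namely 2 mM replicates 1, 2, 4 and 5 and all 4 at 5 mM (adjusted p = 0.0528 to 0.109), and within BeadChip 3 (−0.24, adjusted p = 0.0902).

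Pdia6 was the only member called higher, and on its brighter probe the levels were 6.86, 6.71, 6.68, 6.72 and 6.86 on the PBS arrays, 6.75, 7.09, 6.92 and 6.83 at 1 mM, 7.08, 7.06, 7.32, 7.30 and 7.34 at 2 mM and 7.31, 6.78, 6.93 and 7.17 at 5 mM octanoate. On its dimmer probe they were 5.97, 5.52, 6.06, 5.64 and 5.33 on the PBS arrays, 5.35, 5.27, 5.84 and 6.08 at 1 mM, 5.85, 5.65, 5.35, 5.40 and 5.23 at 2 mM and 5.01, 5.18, 5.34 and 5.09 at 5 mM octanoate. The brighter probe lay above all PBS arrays at 2 mM and overlapped PBS at 5 mM, while the dimmer probe had its lowest mean at 5 mM. The log2 fold change on the brighter probe was 0.46 ± 0.10 at 2 mM (limma adjusted p = 0.00111) and 0.28 ± 0.10 at 5 mM (adjusted p = 0.0286). At 5 mM the dimmer probe fell by 0.55 ± 0.17 (adjusted p = 0.0109), so the direction for the gene depends on the probe. The mean of both probes gave 0.13 at 2 mM (adjusted p = 0.244) and −0.13 at 5 mM (adjusted p = 0.211). The BeadChip term brought the brighter probe to 0.20 at 2 mM (adjusted p = 0.605) and turned it to −0.079 at 5 mM (adjusted p = 0.857). The 5 mM call was lost without PBS replicate 2, 3 or 4 or without 5 mM replicate 1 or 4 (adjusted p = 0.0519 to 0.135). Deposited intensities of the brighter probe averaged 247 ± 31.3 at 5 mM and 196 ± 13.4 with PBS, and those of the dimmer 134 ± 15.1 at 5 mM and 141 ± 18.2 with PBS.

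**Figure D2:**
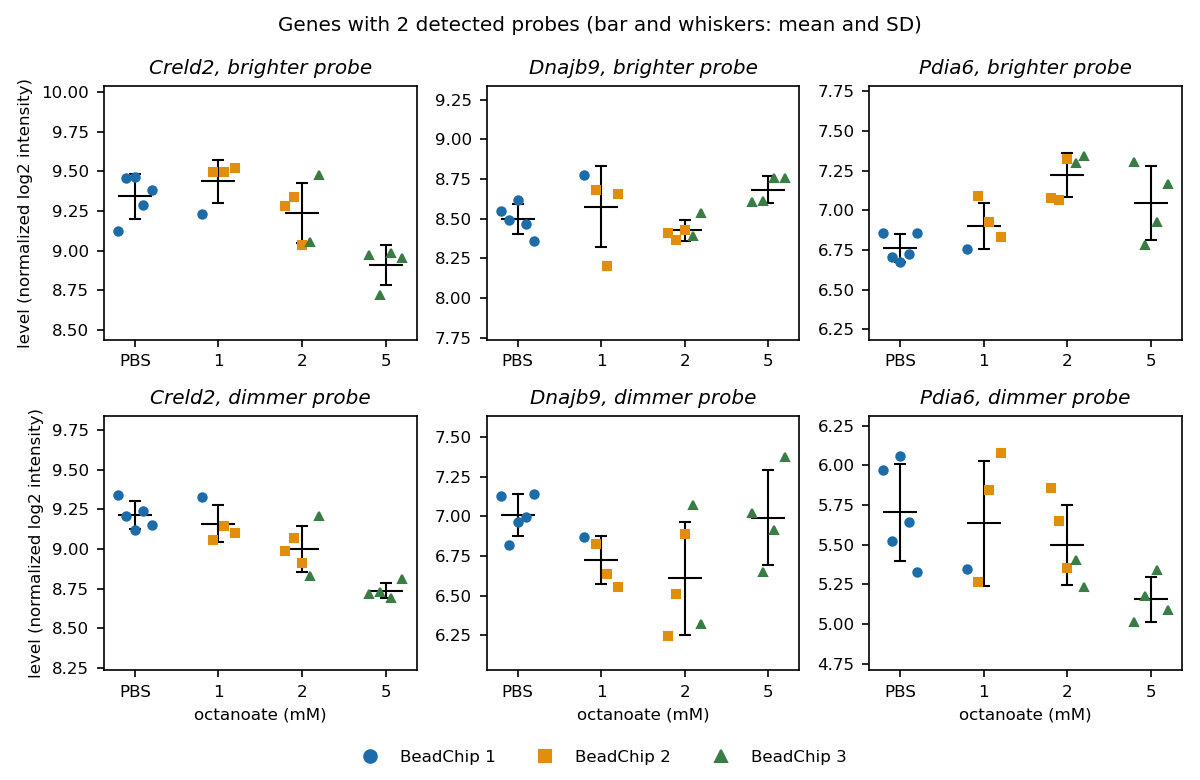
Normalized log2 intensity per array (points, with colour and shape for the BeadChip) and group mean and SD (bars) of the brighter probe (top) and the dimmer probe (bottom) of Creld2, Dnajb9 and Pdia6, for PBS and for 1, 2 and 5 mM octanoate. Both Creld2 probes are lowest at 5 mM, whereas the Pdia6 probes part in direction (0.28 and −0.55 log2 units at 5 mM against PBS).

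Xbp1 encodes a transcription factor that becomes active after Ire1 removes a short intron from its RNA, and 1 probe measures it here. Which of the 2 RNA forms the probe detects was not examined. Its levels stood at 12.02, 12.07, 12.09 and 11.76 on the 5 mM arrays, and at 11.92, 11.71, 11.79, 11.74 and 11.87 on the PBS arrays. The 2 mM arrays ran between 11.89 and 12.11 and the 1 mM arrays between 11.70 and 12.01. Most arrays at 2 mM and 5 mM lay above the PBS arrays, with 5 mM replicate 4 and 2 mM replicate 1 inside their range. The log2 fold change was 0.21 ± 0.08 at 2 mM (limma adjusted p = 0.0564) and 0.18 ± 0.09 at 5 mM (95% interval −0.0033 to 0.36, adjusted p = 0.0924), so a fall of the size seen for Hspa5 or Calr lies outside the interval. At 2 mM it passed without PBS replicate 1, 1 mM replicate 4, 2 mM replicate 1 or 5 mM replicate 4 (adjusted p = 0.0384 to 0.0458). Without 5 mM replicate 4 it also passed at 5 mM (0.26, adjusted p = 0.0196).

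At 1 mM octanoate none of the 10 members was called by limma, against 17.6% of all tested probes (9.36% higher and 8.26% lower). At an unadjusted p under 0.05 there were 3, of which Hspa5 lay below PBS, and Calr and Pdia4 above it. The median over members was 0.083 log2 units, against −0.0094 over all tested probes. At 2 mM, 3 members were called, Pdia6 higher and Hspa5 and Hyou1 lower, against 37.1% of all probes (18.2% higher and 18.9% lower). The member median was −0.044 and that of all probes −0.018. Hyou1 alone was called at 2 mM with the BeadChip term, a value that runs through 1 mM replicate 1. Between 2 mM and 1 mM, 0 members were called by limma, against 4.79% of probes (3.11% higher and 1.68% lower), and Pdia6 alone had an unadjusted p under 0.05 (0.32 log2 units, adjusted p = 0.0835).

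Between 5 mM and 2 mM, 4 members fell, Calr, Hsp90b1, Creld2 and Pdia4, and 0 rose. Over all probes 28.6% were called, 15.4% higher and 13.2% lower. The median over members was −0.20, against 0.014 over all tested probes. Creld2 was lower (−0.33 ± 0.10, limma adjusted p = 0.0211), and its call was lost without 2 mM replicate 5 or 5 mM replicate 2 (adjusted p = 0.0597 and 0.0851), and within BeadChip 3 (−0.36, adjusted p = 0.0622). Leaving out 5 mM replicate 2 therefore left 2 calls, Calr and Hsp90b1. Within BeadChip 3 the same 2 genes were called. Dnajb9 lay above 2 mM on all 5 mM arrays (0.25, adjusted p = 0.0572), and passed without 1 mM replicate 1, 1 mM replicate 3 or 2 mM replicate 5 (adjusted p = 0.0128 to 0.0491). Sdf2l1 was at −0.25 (adjusted p = 0.109) and passed without 2 mM replicate 4 (−0.33, adjusted p = 0.0275). Over the dose series, Hspa5 and Hyou1 were called lower at 2 mM, while Calr, Hsp90b1 and the brighter Creld2 probe were called lower at 5 mM and at no smaller dose. No difference between genes in their pattern was tested.

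**Figure D3:**
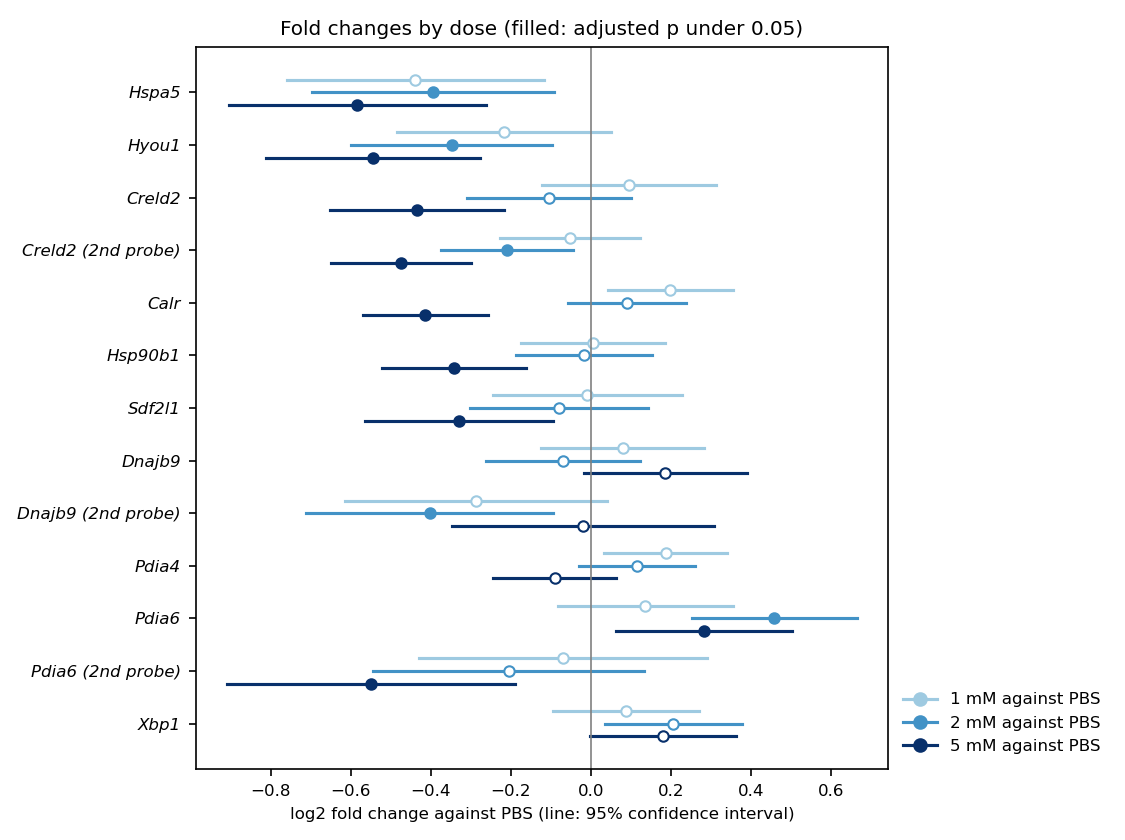
Log2 fold change against PBS, with 95% confidence intervals (lines), of each tested member probe at 1, 2 and 5 mM octanoate, with points filled where called. At 5 mM the intervals of 6 members lie below 0 on their brighter probe, and that of Pdia6 lies above 0 on its brighter probe and below it on the other.

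The scaling of the arrays bears on the size of these falls. With scaling to a common median, the median of all tested probes moved to 0.091 at 5 mM and −0.11 at 1 mM against PBS, and to 0.16 at 5 mM against 2 mM. Calls at 5 mM against PBS numbered 6191 higher and 3270 lower, compared with 5586 and 5400 after quantile normalization. Relative to that median, the log2 fold changes at 5 mM against PBS were −0.49 for Hspa5, −0.46 for Hyou1, −0.43 for Hsp90b1, −0.40 for Creld2, −0.39 for Calr, −0.27 for Sdf2l1 and 0.39 for Pdia6. Taken as they stand, without that subtraction, they were −0.40 for Hspa5, −0.37 for Hyou1, −0.33 for Hsp90b1, −0.31 for Creld2, −0.29 for Calr and −0.18 for Sdf2l1. The 6 falls kept their sign, but those of Creld2, Calr, Hsp90b1 and Sdf2l1 no longer passed (limma adjusted p = 0.0825, 0.0837, 0.0657 and 0.339). At 1 mM, where 498 probes were called higher and 2032 lower under this scaling, Hspa5 passed (−0.59, adjusted p = 0.015). Against 2 mM, Dnajb9 at 5 mM passed (0.45, adjusted p = 0.021), or 0.29 relative to the median. Calr (−0.31), Hsp90b1 (−0.22), Creld2 (−0.13) and Pdia4 (−0.020) did not pass. These falls are given without subtraction of the all-probe median of 0.16, so relative to that median they are larger.

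**Figure D4:**
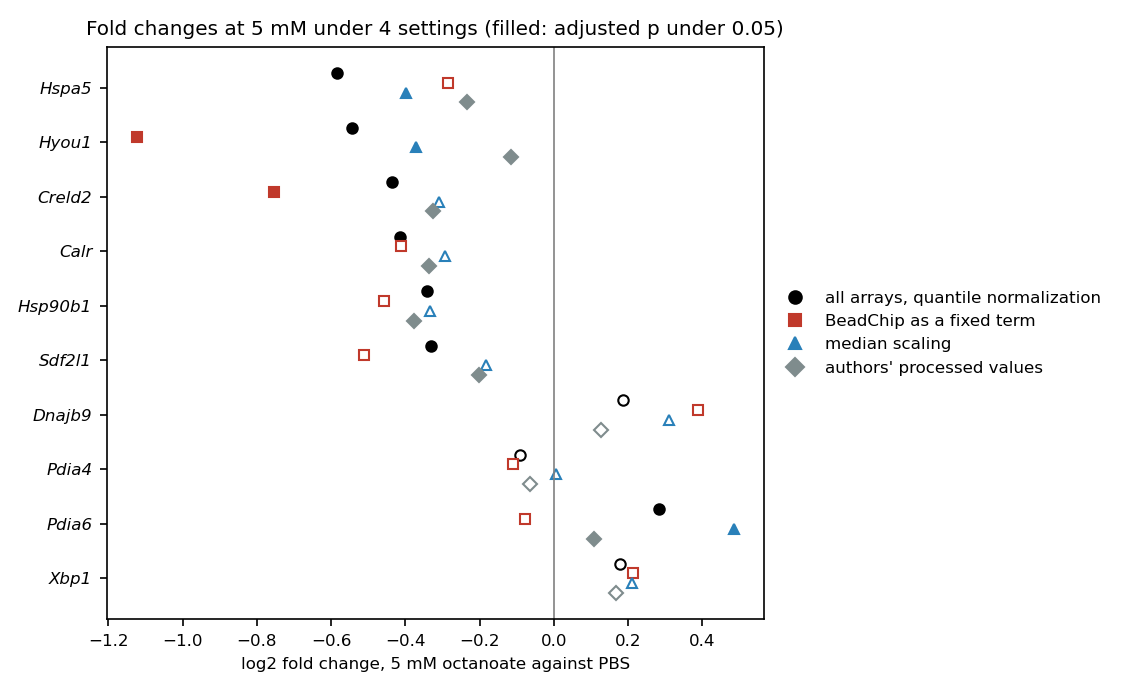
Log2 fold change at 5 mM octanoate against PBS of each member under 4 settings (quantile normalization of all arrays, BeadChip as a fixed term, median scaling and the authors' processed values), with points filled where the adjusted p was under 0.05. The 6 falling members stay below 0 in all 4, Hyou1 is filled in all 4, and Pdia6 lies at −0.079 with BeadChip as a fixed term.

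Members with and without an ERSE were set side by side. Of all tested probes, 27.2% were called higher and 26.3% lower at 5 mM against PBS. Of the 5 with the element, 4 fell and 1 rose at 5 mM against PBS, with a median of −0.41. The riser was Pdia6 on its brighter probe, while its dimmer probe fell (−0.55). Of the 4 with a window and no element, 1 fell (Sdf2l1) and 0 rose, with a median of 0.044. Outside the members, the element stood in the windows of 32 further genes, and 8 of them were measured. Of these 8, Acnat2 (0.68, limma adjusted p = 2.85e-04) and Ero1b (0.31, adjusted p = 0.0444) rose and Pan2 (−0.49, adjusted p = 1.93e-04) fell, and the median was 0.080. Dnajc3, a BiP cofactor that inhibits Perk, was at 0.097 and Syvn1, an ER ubiquitin ligase, at −0.052, and neither passed (limma adjusted p = 0.504 and 0.609). The numbers are small, and no difference between these sets was tested.

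Over the 18 arrays the 15 pairs among the 6 falling members had Pearson correlations of 0.079 to 0.69, with a median of 0.46. Once each group's mean was taken away, the median of these 15 pairs was −0.079. The 6 members were picked for their fall at 5 mM on these same arrays, which favours positive correlations over all 18. All 45 pairs of members spanned −0.51 to 0.72, with a median of −0.016. These values describe arrays that share treatment, BeadChip and scaling. The genes whose levels followed Hspa5 most closely among 10595 others were Mrpl21 (0.82), Ehmt1 (0.81), Atg3 (0.81), Olfr213 (0.79) and Zbtb7a (0.79), as Pearson correlations over 18 arrays. Of these, all but Olfr213 were called lower at 5 mM against PBS, as were 26.3% of all tested probes. They were picked for following Hspa5, which fell on these same arrays, so lower calls among them are favoured by construction. The log2 fold changes were −0.36 for Mrpl21, a mitochondrial ribosomal protein, and −0.88 for Ehmt1, a histone methyltransferase. Atg3, an autophagy enzyme, was at −0.54 and Zbtb7a, a zinc finger repressor, at −0.85. Olfr213 (4.59 at 5 mM, 4.87 with PBS) and Ehmt1 (4.76 at 5 mM, 5.64 with PBS) were dim.

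The sensors of the unfolded protein response were mostly not called at 5 mM. Of 8 measured sensors and activating proteases, 1 rose and 2 fell against PBS, with a median of −0.094. Beside this count and those of the lists below at 5 mM against PBS stand 27.2% of all tested probes called higher and 26.3% lower. Ern1, which encodes Ire1, was at −0.023 (limma adjusted p = 0.858), Atf6 at −0.12 (adjusted p = 0.303) and Eif2ak3, which encodes Perk, at −0.24 (adjusted p = 0.169). The Eif2ak3 probe lay close to background, with means of 4.81 at 5 mM and 5.05 with PBS. It was detected on 3 of 4 arrays at 5 mM and 3 of 5 with PBS, so its missing call says little. Atf6b, a relative of Atf6, fell by 0.57 (adjusted p = 6.97e-05). Wfs1, an ER membrane protein that restrains Atf6, rose by 0.96 (adjusted p = 1.18e-08). Mbtps2, a protease that releases Atf6, was lower by a small amount (−0.25, adjusted p = 0.0463) on 1 of 3 probes, whose values ran up to 0.16, and this call was lost in 19 of the 28 alternative settings.

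Downstream of Perk, 12 genes of the integrated stress response were measured, of which 2 rose and 6 fell at 5 mM, with a median of −0.24. Atf4, its central transcription factor, had a mean of 11.91 at 5 mM and 12.64 with PBS, a log2 fold change of −0.72 ± 0.09 (limma adjusted p = 1.1e-06), and its other probe was at −0.81. Atf3, a target of Atf4, fell by 1.22 ± 0.12 (adjusted p = 4.73e-08) and Cebpb by 0.63 (adjusted p = 1.83e-06). Sesn2 rose by 1.03 (adjusted p = 2.01e-05) on 1 of 3 probes, the lowest of which gave 0.056. Ddit3, the apoptotic factor Chop, was at 0.073 (95% interval −0.17 to 0.32, adjusted p = 0.626). After adding the BeadChip term, 1 gene of the list was called higher, Sesn2 (1.38, adjusted p = 0.0174), and 2 lower, Atf3 (−1.61) and Cebpb (−0.68), and Atf4 missed (−0.61, adjusted p = 0.058).

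At 1 mM against PBS 0 genes of this list were called higher by limma and 4 lower (median −0.13), and at 2 mM 1 higher and 8 lower (median −0.38). At 5 mM against 2 mM, 6 were higher and 2 lower (median 0.26). Of all tested probes, 9.36% were called higher and 8.26% lower at 1 mM, and 18.2% higher and 18.9% lower at 2 mM. For 5 mM against 2 mM the shares were 15.4% higher and 13.2% lower. With the BeadChip term the counts, higher and lower, were 0 and 2 at 1 mM, 0 and 3 at 2 mM, and 4 and 2 for 5 mM against 2 mM. The comparisons with PBS share the PBS arrays, and the 2 mM arrays enter the second comparison and the last with opposite signs, so opposite medians there are favoured by construction. No difference between comparisons was tested.

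Genes that work beside the members did not share 1 direction at 5 mM against PBS, where 27.2% of all tested probes were called higher and 26.3% lower. Among 12 other ER co-chaperones 3 rose and 3 fell, with Dnajb12, a membrane J-domain protein, at −0.77 (limma adjusted p = 8.33e-07), Dnajc25 at −0.58 (adjusted p = 0.00208), Sdf2, the paralog of Sdf2l1, at 0.82 (adjusted p = 1.44e-06) and Creld1, the paralog of Creld2, at 0.40 (adjusted p = 2.75e-04). The second probe of Creld1 gave −0.0050. With BeadChip as a term Creld1 (0.29, adjusted p = 0.303) and Dnajc25 (−0.97, adjusted p = 0.0554) lost their calls. Sdf2 and Sdf2l1 thus differed in sign, as did Creld1 and Creld2, and the difference between paralogs was not tested.

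Of 14 other disulfide isomerases and oxidases, 4 rose and 5 fell, with a median of 0.045. Tmx4, a membrane member of the family, rose by 1.18 (limma adjusted p = 1.38e-08), and Qsox1, a sulfhydryl oxidase, by 0.91 (adjusted p = 1.38e-08). Prdx4, the ER peroxiredoxin, fell by 0.52 (adjusted p = 1.93e-05), a call that was lost with BeadChip as a term (−0.48, adjusted p = 0.0986). P4hb, the classical protein disulfide isomerase, was lower (−0.24, adjusted p = 0.00591), a value that turned to 0.045 with BeadChip as a term.

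Among 8 lectin chaperones and glycan-trimming genes 3 rose and 0 fell. Mcfd2, a cargo receptor subunit, rose by 1.15 (limma adjusted p = 1.28e-09) and Uggt2, a folding sensor glucosyltransferase, by 0.66 (adjusted p = 2.83e-05). Lman2, a cargo lectin, was at 0.43 on one probe and −0.32 on the other, both called, and the mean of its probes was 0.055 (adjusted p = 0.564). Its call was also lost with BeadChip as a term (0.60, adjusted p = 0.0738). Prkcsh, the beta subunit of glucosidase II, was at 0.12 (adjusted p = 0.232). Of 7 ER prolyl isomerases 3 rose and 1 fell, with Fkbp14 at 1.22, Fkbp9 at 0.72, Ppic at 0.36 and Fkbp2 at −0.64 (adjusted p = 1.66e-06, 1.66e-07, 6.89e-04 and 8.36e-08). None of the 3 rises was called with BeadChip as a term, which gave 0.64 for Fkbp14 (adjusted p = 0.204), 0.47 for Fkbp9 (adjusted p = 0.0612) and 0.51 for Ppic (adjusted p = 0.0639), while Fkbp2 was still called (−0.68, adjusted p = 0.00574).

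ER-associated degradation, which removes misfolded proteins, had 5 of 16 measured genes higher and 4 lower, with a median of 0.037. The lectins Os9 (0.91, limma adjusted p = 2.18e-09) and Erlec1 (0.70, adjusted p = 1.51e-06) and the mannosidase relative Edem2 (0.56, adjusted p = 3.51e-06) rose. Ube2j2, a ubiquitin-conjugating enzyme, fell by 0.77 (adjusted p = 3.3e-06). Erlec1 lost its call with BeadChip as a term (0.47, adjusted p = 0.131).

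Genes that bring proteins into the ER and genes of vesicles that carry them out were counted beside the 27.2% of all tested probes called higher and 26.3% called lower at 5 mM against PBS, and no difference between these lists was tested. Of 24 translocon and signal peptidase genes 5 rose and 9 fell (median −0.056), including Sec62 (−1.07), Spcs3 (−0.79) and Ssr1 (−0.62), while Srp14 was higher (0.41). These 4 had limma adjusted p values of 1.78e-07, 6.96e-07, 2.28e-06 and 4.38e-05. With BeadChip as a term none of the 4 was called, at −0.56 for Sec62, −0.58 for Spcs3, −0.48 for Ssr1 and 0.37 for Srp14 (adjusted p = 0.121, 0.0825, 0.0976 and 0.127). Of 9 oligosaccharyltransferase genes 4 rose and 1 fell (median 0.24), with Dad1 at 0.55, Stt3a at 0.36, Ostc at 0.32 and Ddost at −0.31 (adjusted p = 5.86e-05, 9.23e-04, 3.88e-04 and 0.00807). The other probe of Dad1 was at −0.15. All 4 lost their call with that term (0.39 for Dad1, 0.25 for Stt3a, 0.34 for Ostc and −0.17 for Ddost; adjusted p = 0.257, 0.388, 0.147 and 0.648). Of 13 COPII and KDEL receptor genes 8 rose and 2 fell (median 0.32), with the coat proteins Sec24d at 1.14 and Sec23a at 0.71, the small GTPase Sar1b at 0.42 and Kdelr3, a receptor that returns ER chaperones from the Golgi, at 0.50 (adjusted p = 1.44e-06, 1.6e-04, 2.9e-05 and 8.19e-05). Sec23a (0.40, adjusted p = 0.425) and Sar1b (0.31, adjusted p = 0.198) were not called with the term. With BeadChip as a term the counts, higher and lower, were 2 and 2 for the translocon list, 0 and 0 for oligosaccharyltransferase, 2 and 0 for COPII, 3 and 1 for degradation, 2 and 0 for other disulfide isomerases, 1 and 1 for other co-chaperones, 2 and 0 for lectins, and 0 and 1 for prolyl isomerases. Of the 47 genes named from these and the other lists, 42 were called at 5 mM against PBS. Of these 42, 22 lost their call or changed sign with that term, and with median scaling 3 did, Mbtps2, P4hb (−0.28, adjusted p = 0.108) and Ddost (−0.18, adjusted p = 0.319).

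Heat shock genes of the cytosol and mitochondria numbered 33, of which 10 rose and 14 fell at 5 mM against PBS, with a median of −0.21. Of all tested probes, 27.2% were called higher and 26.3% lower. Hspa4, an Hsp110 relative of Hyou1 in the cytosol, fell by 0.92 (limma adjusted p = 1.39e-05), the mitochondrial chaperonin Hspd1 by 0.46 (adjusted p = 4.57e-05), and Cct6a, a subunit of the cytosolic chaperonin, by 0.45 (adjusted p = 4.27e-05). Hspa2, an Hsp70 best known from testis, rose by 0.86 (adjusted p = 8.49e-08). The BeadChip term left 3 genes called higher and 4 lower, and Hspd1 missed (−0.53, adjusted p = 0.0569).

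**Figure D5:**
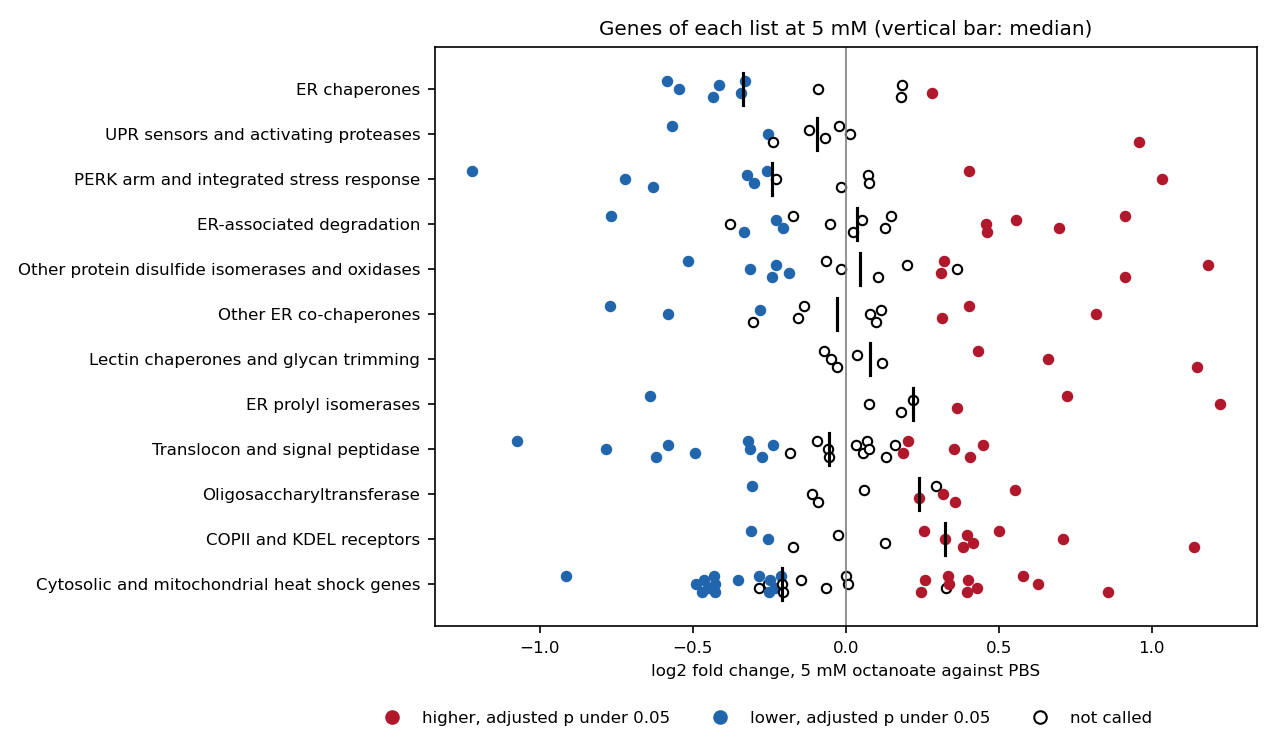
Log2 fold change at 5 mM octanoate against PBS of each measured gene in the member list and 11 other lists (points, red where called higher, blue where called lower and open where not called), with the median of each list as a vertical bar. The member median of −0.34 is the lowest of the 12, and that of the COPII and KDEL receptor list, 0.32, is the highest. Members and lists were chosen with earlier results of these data known, so this order is a description only.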

How the data were processed

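RNA of AML12 cells was hybridised in 1 colour to Illumina mouse BeadChips, 18 arrays in 4 groups by the agent in the labels. The authors deposited, per the file headers, an intensity per probe and array without background correction or scaling, and a detection p-value beside it. They also deposited a table of processed values, made with lumi per the submitters' processing notes (no version is given there). Deposited values of that table lay on a log2-like scale: over bright probes they correlated at 0.978 to 0.999 with log2 intensity, uncentred and in the same direction, with array medians of 7.352 to 7.357, and its normalization stays unknown. It served as an alternative only.

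Intensities were corrected and normalized with neqc of limma 3.58.1 (R 4.3.3, statmod 1.5.0): normexp background from negative controls inferred from detection p-values, offset 16, quantile normalization and log2. Tested were 20536 probes (45.4%) with detection p under 0.05 on 4 or more arrays. The number of arrays limits the precision (median SE 0.114 for 5 mM against PBS, 14 residual degrees of freedom). lmFit and eBayes were fitted to all 18 arrays, two-sided, with Benjamini-Hochberg adjustment over all tested probes. The fit was tested on simulated data.

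Symbols came from the platform annotation (34885 probes with 1 symbol, 18 with several, 10378 unnamed), updated by Entrez ID through RefSeq for 34807. Cross-hybridization was not examined. RefSeq promoter windows were matched by symbol. Named genes were all members, the up to 4 genes of each other list lowest in adjusted p at 5 mM against PBS, 5 stress response genes whatever their result, and the 5 genes most correlated with Hspa5. Genes outside the members that share the ERSE were named after their values were seen. Members and lists were chosen with earlier results of these data known. Alternatives changed the scaling, background correction, probe filter, probe summary, samples fitted and batch terms, and left out each array in turn. 1 more, chosen after seeing the data, left out 1 mM replicates 1 and 4, which stood apart from their group on minor principal components.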

Additional observations from a re-analysis of the deposited data

Results flagged for a closer look

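In 56 sets of 4 or 5 arrays (14 probes in 4 groups), 3 arrays lay further from the rest of their group than Dixon's limit allows, and chance alone is set to give about 1 in 20. On the brighter Creld2 probe, 1 mM replicate 1 was at 9.23 with the nearest 1 mM array at 9.50. On the same probe, 5 mM replicate 2 was at 8.72 with the nearest 5 mM array at 8.95. For Sdf2l1, 2 mM replicate 4 was at 7.90 with the nearest 2 mM array at 8.24.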

How the results depend on the processing

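There were 28 alternative settings, of which 18 left out 1 array each. The number of members called at 1 mM against PBS was 0, and became 1 with median scaling, 3 without background correction, 3 with the authors' processed values, 1 with only the arrays of the 2 groups and 2 with the mean of a gene's probes (0 to 1 with 1 array left out). At 2 mM the 3 calls became 1 without the filter on dim probes and 1 with BeadChip as a fixed term (1 to 4 with 1 array left out, 1 of them without PBS replicate 2, PBS replicate 5 or 2 mM replicate 5). At 5 mM the 7 calls became 3 with median scaling and 2 with BeadChip as a fixed term (6 to 8 with 1 array left out). For 5 mM against 2 mM the 4 calls, all lower, became 2 with BeadChip as a fixed term (2 to 5 with 1 array left out, 2 of them without 5 mM replicate 2). With median scaling none of these 4 kept its call, and the 1 gene called was Dnajb9, higher. For 2 mM against 1 mM 0 were called throughout. Called values that turned were Pdia6 at 5 mM, −0.079 with the BeadChip term and −0.13 with the mean of its probes, and P4hb, 0.045 with the BeadChip term. Another 42 values changed sign while called under neither setting. Without 1 mM replicates 1 and 4, 7 members were called at 5 mM and 4 at 2 mM. Except where a sample or probe was left out by construction, the cause of a change was not tested.

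With the replicate number as a block, the 4 calls for 5 mM against 2 mM became 2 (Creld2, adjusted p = 0.0566, and Pdia4, adjusted p = 0.0673, were lost), and counts in the other comparisons stayed within 1.5 times. Replicate numbers did not pair the samples: over 25 pairs of arrays with the same number in different groups, deviations from the group means correlated at −0.041 to 0.054. Dim probes (Hyou1, the dimmer probe of Pdia6) lie close to background, where the offset understates change.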
